A study of Mus musculus with 4 samples.

Results

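Intercalated cell rich spots are the Visium spots of the mouse kidney that carry the most transcript of 5 intercalated cell genes. Intercalated cells sit singly among the principal cells of the connecting tubule and collecting duct and move acid or base into the urine. Type A cells secrete protons with an apical proton pump and return bicarbonate to blood through the anion exchanger Slc4a1. Type B cells secrete bicarbonate through the exchanger pendrin, encoded by Slc26a4, and the forkhead factor Foxi1 drives the program of both types.

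Members were chosen from the measured values. In each spot the UMIs of Atp6v1g3 and Atp6v0d2, subunits of the proton pump, and of Slc4a1, Slc26a4 and Foxi1 were divided by the UMIs outside the mitochondrial genome, scaled to 10000, log-transformed and summed. The top 5% of spots of each section by this score were members, 555 of 11130 spots in all. There were 132 and 129 members in the Uox_KO sections and 126 and 168 in the Control sections.

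The study measured 10 µm fresh frozen kidney sections of male mice, 2 of genotype Uox_KO and 2 of Control, all of the C57BL/6J background. In the Uox_KO line exons 2 to 4 of Uox, the gene for urate oxidase, were removed, and it serves as a hyperuricemia model. The Control mice were wild type. Each section is titled as its own mouse and the labels give no age. Uox itself had 0 UMIs in every section, which allows up to 0.0557 and 0.0524 CPM (UMIs scaled to a common library size) in Uox_KO and 0.0321 and 0.0278 CPM in Control, so it could not check the labels. A spot covers several cells, so a member is a small region rich in intercalated cell transcripts and not a cell. Fewer intercalated cells in a spot and less RNA per cell cannot be told apart.

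Member spots held 2348103 and 2974161 UMIs in Uox_KO, against 3820973 and 4652404 in Control. Median UMIs per member were 14741 and 20068 in Uox_KO and 29442.5 and 27980.5 in Control. Mitochondrial transcripts were 15.48% and 18.78% of member UMIs in Uox_KO and 13.21% and 13.63% in Control, and the part of depth and of this share in the genotype differences below was not tested. The labels do not say which slide or sequencing run held each section, and p-values measure only the spread between 2 sections a group. All 4 libraries shared 1713 spot barcodes, which name positions on the slide; the positions themselves are not used here. CPM below use library sizes scaled by trimmed mean of M values (TMM).

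The promoters of 4 genes on which the results turn are shown as RefSeq gives them (GRCm38.p6), each as the 250 bases before a transcript start, 5′ to 3′ on the gene's strand. Slc26a4 and Oxgr1 are type B genes, Atp6v1b1 is the pump subunit of the distal nephron, and Aqp6 is a type A gene. Capitals mark the forkhead core TGTTTA or its reverse complement TAAACA, both strands being searched, with no overlap between the 2 words.
Slc26a4: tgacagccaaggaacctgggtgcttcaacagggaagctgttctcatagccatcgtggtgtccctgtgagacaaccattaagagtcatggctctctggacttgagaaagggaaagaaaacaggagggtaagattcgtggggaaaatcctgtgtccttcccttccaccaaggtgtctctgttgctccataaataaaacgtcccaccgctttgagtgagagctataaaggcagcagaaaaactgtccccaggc
Oxgr1: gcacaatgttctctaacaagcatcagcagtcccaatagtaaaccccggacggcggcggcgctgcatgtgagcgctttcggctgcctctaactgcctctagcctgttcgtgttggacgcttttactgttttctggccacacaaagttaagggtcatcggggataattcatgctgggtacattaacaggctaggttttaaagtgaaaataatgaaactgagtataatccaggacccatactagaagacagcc
Atp6v1b1: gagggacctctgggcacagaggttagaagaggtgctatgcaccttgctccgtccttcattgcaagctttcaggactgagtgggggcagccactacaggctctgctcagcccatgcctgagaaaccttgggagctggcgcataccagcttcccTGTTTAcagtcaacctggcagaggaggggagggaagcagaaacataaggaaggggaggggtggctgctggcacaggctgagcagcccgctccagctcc
Aqp6: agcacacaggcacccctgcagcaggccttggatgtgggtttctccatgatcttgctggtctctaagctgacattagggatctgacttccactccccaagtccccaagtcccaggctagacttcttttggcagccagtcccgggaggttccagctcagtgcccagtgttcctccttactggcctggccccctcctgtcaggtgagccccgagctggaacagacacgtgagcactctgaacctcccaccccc
Slc26a4 lies at chr12:31519814-31560055 and Oxgr1 at chr14:120019585-120042435, Aqp6 at chr15:99598468-99605478, all protein-coding. The printed stretches lie at chr12:31559985-31560234 and chr14:120042436-120042685 on the minus strand, and at chr6:83742767-83743016 and chr15:99600950-99601199 on the plus strand. The Aqp6 stretch lies within the span of its gene, and the Slc26a4 stretch overlaps the span of its gene. For both, the transcript start used is therefore inside the gene span given. The word occurred once in the Atp6v1b1 window and was not found in the other 3 windows. Of 32851 RefSeq promoter windows of this length, 12% held it, and of the 21 windows of proton pump genes 1 did. A match is a description of letters and not a binding site.

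The 5 genes of the rule were present in members of all sections, and 4 of the 5 were at lower levels in both Uox_KO sections. Members were chosen by these same values, with a lowest admitted score that differed by section, so the levels are given as a description. Atp6v1g3 had 406 and 793 CPM in Uox_KO members, against 1216 and 1459 CPM in Control members. Slc26a4 had 172 and 261 CPM in Uox_KO members and 438 and 490 CPM in Control members. Foxi1 had 81.8 and 107 CPM in Uox_KO members and 158 and 174 CPM in Control members. For these genes both Uox_KO sections lay below both Control sections, and Uox_KO replicate 1 was the lowest of all. The groups did not overlap for 64.3% of all genes tested between genotypes in members. Atp6v0d2 had 85.8 and 133 CPM in Uox_KO members and 174 and 180 CPM in Control members. Slc4a1 had 58.3 and 93.1 CPM in Uox_KO members and 88.9 and 97.2 CPM in Control members, so that its groups overlapped.

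The score that admitted a spot differed by section. The last spot inside scored 2.133 and 4.15 in Uox_KO and 5.898 and 6.483 in Control, and the first spot outside scored 2.129 and 4.079 in Uox_KO and 5.863 and 6.475 in Control. In Uox_KO replicate 1 the last spot inside had 2 UMIs of Atp6v1g3 and 1 of Slc26a4, so members there include spots with few counts. All 5 genes had a UMI in 28 of 132 and 54 of 129 members in Uox_KO, against 110 of 126 and 145 of 168 in Control. Outside the members, 12.75% and 31.82% of Uox_KO spots had an Atp6v1g3 UMI, against 84.85% and 87.54% of Control spots. Members held 71.51% and 60.28% of all Atp6v1g3 UMIs in the Uox_KO sections and 29.3% and 27.18% in the Control sections. With 1 score threshold for all sections, 36 and 68 Uox_KO spots and 159 and 293 Control spots would be members.

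To give each of the 5 genes a test that did not use it, members were chosen again by the other 4 genes and the omitted gene was compared between genotypes with edgeR's quasi-likelihood test, adjusted over all genes (Benjamini-Hochberg, as in every adjusted p below). These members were again the top 5% of each section, so the score that admitted a spot could still differ by section. No run with 1 score threshold was made for the omitted genes, and the part of the threshold in their differences was not tested. Slc26a4 fell by 1.08 on the log2 scale in Uox_KO (SE 0.16, adjusted p 0.000152), and Foxi1 fell by 0.76 (SE 0.14, adjusted p 8.18e-05). Atp6v0d2 fell by 0.64 (SE 0.16, adjusted p 0.00816). Atp6v1g3 fell by 1.12 (SE 0.26, adjusted p 0.00566), a call that was lost without Control replicate 2 (adjusted p 0.0741). Slc4a1 had a log2 difference of -0.28 (SE 0.16) that did not pass the test (adjusted p 0.213), and without Uox_KO replicate 2 it passed (-0.61, adjusted p 0.00218). Without Uox_KO replicate 1 the differences shrank to -0.69 for Atp6v1g3 and -0.36 for Atp6v0d2, and without Uox_KO replicate 2 they were -1.74 for Atp6v1g3 and -0.995 for Atp6v0d2.

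**Figure D1:**
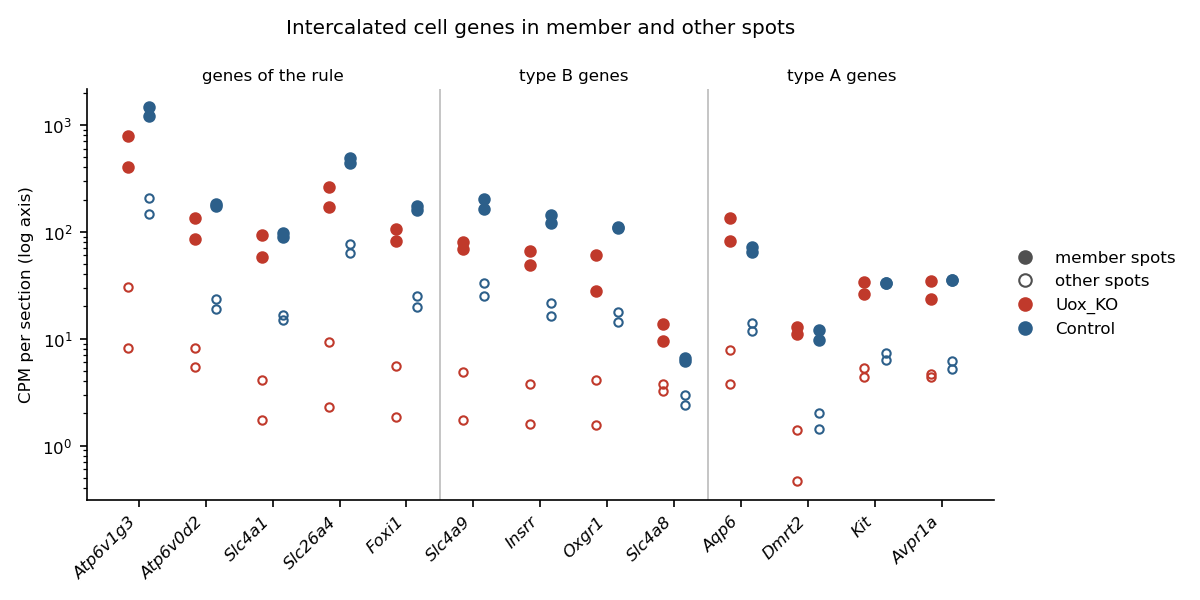
CPM per section on a log axis (vertical) of the 5 genes of the rule, 4 type B genes and 4 type A genes (horizontal), each point being 1 section, filled for member spots and open for other spots. Slc4a9, Insrr and Oxgr1 are lower in both Uox_KO sections than in both Control sections, and Aqp6 in members is higher (82.2 and 135 against 71.7 and 65.1 CPM).

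The genes that shared the members' spots fit the collecting duct and connecting tubule. Members were chosen by level, so the comparison with the other spots of a section says which genes lie in the same spots and is given as a description. By edgeR with the section as a block, 13.6% of 14710 genes were higher and 18.1% lower in members. Of 21 proton pump genes measured, 13 were higher and 4 lower, and of 17 acid-base and ion transport genes 14 were higher and 1 lower. All 8 principal cell genes and all 5 connecting tubule genes measured were higher. Rhbg, an ammonia transporter, was 265 and 451 CPM in Uox_KO members against 8.56 and 25.6 CPM in the other Uox_KO spots, and 380 and 407 CPM in Control members against 55.6 and 70 CPM in the other Control spots. Atp6v1b1 was 97.9 and 152 CPM in Uox_KO members against 9.68 and 16.7 CPM in the other Uox_KO spots, and 169 and 198 CPM in Control members against 31.8 and 44.5 CPM in the other Control spots. Hepacam2, a gene of intercalated cells, was 49.9 and 72.9 CPM in Uox_KO members against 2.32 and 4.52 CPM in the other Uox_KO spots, and 81.7 and 80.2 CPM in Control members against 11.4 and 12.6 CPM in the other Control spots. Every section showed the same direction for these genes, with a wider gap in Uox_KO.

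The label holds for the intercalated cell transcripts, but the spots are mixed. The genes whose level followed the score most closely over all spots were Hsd11b2 (mean Pearson r over the 4 sections 0.73), Rhbg (0.72), Spink8 (0.71), Rhcg (0.70), Scnn1b (0.70), Atp6v1c2 (0.66), Scnn1g (0.65), Slc4a9 (0.65), S100g (0.62) and Calb1 (0.61). Hsd11b2, the enzyme that inactivates corticosterone, and the sodium channel subunits Scnn1b and Scnn1g are principal cell genes, and Calb1 and S100g are calcium-binding genes of the connecting tubule. Spots of a section share library and depth, so these r are descriptions. Of the members, 65.91% and 63.57% in Uox_KO and 46.03% and 51.79% in Control were also among the top 5% of spots by the principal cell list. Likewise 50% and 51.16% in Uox_KO and 45.24% and 40.48% in Control were among the top 5% by the connecting tubule list.

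Type B genes were lower in Uox_KO members, and type A genes were not lower as a group in members. Of 11995 genes tested between genotypes in members, 14.6% were higher and 13.3% lower in Uox_KO at an adjusted p under 0.05, with a median log2 difference of -0.01. These are 1756 higher and 1597 lower genes, against 2269 and 1081 with no scaling beyond the library size, which moves the median of all genes to 0.13. Of the 4 type B genes 3 were lower and 1 higher, with a median of -1.24. Of the 4 type A genes tested, 1 was higher and none lower, with a median of 0.01. The other 3 did not pass, at adjusted p of 0.27 to 0.71, and Slc26a7 and Clnk had too few counts to be tested. In the other spots 3 of 5 type A genes tested were lower and none higher, with a median of -0.83. Of the 4 type B genes 3 were lower and none higher there, with a median of -2.69. Among all genes 32.9% were lower and 34.9% higher in the other spots.

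Slc4a9, an anion exchanger of the type B basolateral membrane, had 69.7 and 80.8 CPM in Uox_KO members, against 163 and 202 CPM in Control members. It fell by 1.28 on the log2 scale (SE 0.14, adjusted p 1.1e-05). Insrr, a receptor that senses alkali, had 48.4 and 65.7 CPM in Uox_KO members and 122 and 143 CPM in Control members. It fell by 1.20 (SE 0.15, adjusted p 3.6e-05). Oxgr1, the 2-oxoglutarate receptor of type B cells, had 27.9 and 60 CPM in Uox_KO members and 109 and 110 CPM in Control members. It fell by 1.29 (SE 0.22, adjusted p 0.00047). The groups did not overlap for any of the 3 genes, as for 64.3% of all genes tested. Slc4a8, a sodium-driven bicarbonate exchanger that works beside pendrin, went the other way, with 13.6 and 9.43 CPM in Uox_KO members and 6.17 and 6.59 CPM in Control members. Its log2 difference was 0.83 (SE 0.29, adjusted p 0.043), and it did not pass without Uox_KO replicate 1 (adjusted p 0.267), Control replicate 1 (0.138) or Control replicate 2 (0.126). When 1 score threshold was used for all sections, Slc4a9 (-0.51, adjusted p 0.0127), Insrr (-0.41, adjusted p 0.0214) and Oxgr1 (-0.67, adjusted p 0.00301) were still lower, by smaller amounts. By DESeq2 the Oxgr1 difference did not pass (adjusted p 0.0703).

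Among the type A genes, Aqp6, a water and anion channel of intracellular vesicles, had 82.2 and 135 CPM in Uox_KO members, against 71.7 and 65.1 CPM in Control members. It rose by 0.68 (SE 0.18, adjusted p 0.012), a call that was lost without Uox_KO replicate 2 (0.29, adjusted p 0.139). With 1 score threshold the rise was 1.16 (adjusted p 6.62e-07). The transcription factor Dmrt2 had 11 and 12.9 CPM in Uox_KO members and 12.1 and 9.78 CPM in Control members. Kit, a receptor tyrosine kinase, had 26 and 33.6 CPM in Uox_KO members and 32.9 and 33 CPM in Control members. Avpr1a, a vasopressin receptor, had 23.5 and 34.6 CPM in Uox_KO members and 35.7 and 35.7 CPM in Control members. The Uox_KO and Control sections overlapped for Dmrt2 and Kit and did not for Avpr1a.

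Both Uox_KO sections had fewer type B UMIs per type A UMI than both Control sections. Summed over the 4 type B and the 6 type A genes, members had 435 and 687 type B UMIs beside 393 and 690 type A UMIs in Uox_KO, against 1559 and 2172 beside 603 and 687 in Control. The type B to type A ratio was 1.107 and 0.996 in Uox_KO members and 2.585 and 3.162 in Control members. In the other spots it was 0.615 and 0.838 in Uox_KO and 2.298 and 2.463 in Control. The Uox_KO ratios were below the Control ratios in both kinds of spots and under each of the 5 other ways of choosing members, where the highest Uox_KO ratio in members was 1.565 and the lowest Control ratio 2.439. An exact permutation test of 2 sections against 2 cannot go below 0.333, and no other test of this ratio was made.

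Members were also split by type with 2 genes of the rule, and since these values chose the members and the score threshold differed by section, the shares are given as a description with no test. A member was called type A leaning when it had more Slc4a1 than Slc26a4 UMIs and type B leaning in the reverse case. Type A leaning members were 32 of 132 and 30 of 129 in Uox_KO, or 24.24% (95% exact binomial interval 17.21 to 32.47) and 23.26% (16.27 to 31.51). In Control they were 1 of 126 and 2 of 168, or 0.79% (0.02 to 4.34) and 1.19% (0.14 to 4.23). After each member was thinned to 10000 UMIs the shares were 15.56% and 23.21% in Uox_KO, where 42 and 17 shallower members were left out, and 7.14% and 2.98% in Control. Slc4a1 made up 25.32% and 26.29% of the UMIs of both genes in Uox_KO members and 16.89% and 16.54% in Control members. Over whole sections it made up 29.86% and 27.92% in Uox_KO and 18.67% and 17.53% in Control. The share of type A leaning spots over whole sections went the other way, at 4.15% and 6.22% in Uox_KO and 9.73% and 8.75% in Control, where fewer Uox_KO spots had a UMI of either gene. Type B leaning spots were 6.94% and 15.9% of all spots in Uox_KO and 59.7% and 59.8% in Control. The intervals cover counting error only.

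**Figure D2:**
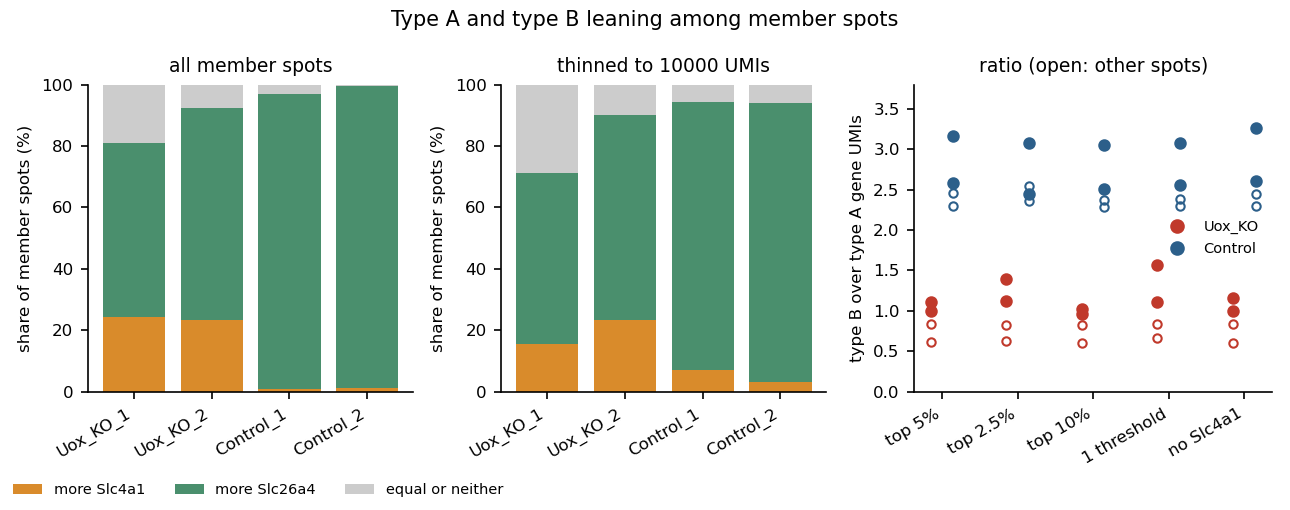
Left and middle, share of member spots (percent) by the gene with more UMIs in the 4 sections, for all members and after thinning to 10000 UMIs. Right, UMIs of type B genes over those of type A genes per section for 5 ways of choosing members (filled) and for the other spots (open), with Uox_KO at 1.107 and 0.996 and Control at 2.585 and 3.162 for the top 5%.

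Slc4a1 is also the band 3 protein of red blood cells, and red cell transcripts differed between genotypes. The 5 listed red cell genes summed to 168 and 421 CPM in Uox_KO members, against 11998 and 9667 CPM in Control members, and all 5 were lower. Across members of a section, Slc4a1 and the haemoglobin gene Hbb-bs had Spearman coefficients of 0.039 and -0.067 in Uox_KO and 0.051 and -0.106 in Control. Across the other spots the coefficients were 0.00946 and 0.0472 in Uox_KO and 0.111 and 0.11 in Control. Members chosen without Slc4a1 had type B to type A ratios of 1.164 and 0.996 in Uox_KO and 2.602 and 3.26 in Control. The part of red cells in the Slc4a1 values was not tested.

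The comparison of the leanings over genes outside the rule rests on Uox_KO, since the Control sections had 3 type A leaning spots in all. By edgeR with the section as a block, 15 of 8916 genes (0.168%) were higher and 18 (0.202%) lower in type A leaning members. CPM of the leanings are on each sum's own UMI total, without TMM, and the log2 differences come from the fit over all 4 sections. In Uox_KO, Aqp6 was 169 and 206 CPM in type A leaning members, against 63.7 and 123 CPM in type B leaning members (log2 difference 0.94, SE 0.20, adjusted p 0.00091). Of the 4 type A genes tested Aqp6 was the only one called, with log2 differences from -0.60 to 1.07. Dmrt2 and Kit were higher in type A leaning members in both Uox_KO sections. Avpr1a was 30 and 17.5 CPM in type A leaning and 26.2 and 42.3 CPM in type B leaning members of Uox_KO. Insrr was 21.2 and 31.7 CPM in type A leaning and 72.4 and 86.1 CPM in type B leaning members of Uox_KO (-1.75, SE 0.29, adjusted p 3.2e-06). Oxgr1, by contrast, was 33.5 and 92 CPM in type A leaning and 31.5 and 52.5 CPM in type B leaning members of Uox_KO and did not pass (0.34, adjusted p 1). Slc4a9 was 30 and 54 CPM in type A leaning and 110 and 99.9 CPM in type B leaning members of Uox_KO (-1.09, SE 0.24, adjusted p 0.0028). Aqp2, the vasopressin-regulated water channel of principal cells, was 842 and 319 CPM in type A leaning and 1780 and 1545 CPM in type B leaning members of Uox_KO (-1.56, SE 0.24, adjusted p 4.4e-07). Of the 7 principal cell genes tested, 5 were lower in type A leaning members. DESeq2 called no gene, where 345 genes (3.87%) had an unadjusted p under 0.05 by edgeR, and the Insrr, Slc4a9, Aqp2 and Aqp6 differences kept their direction. Without Uox_KO replicate 1 the adjusted p of Slc4a9 and Aqp6 was 1, and without Uox_KO replicate 2 it was 1 for both and 0.794 for Aqp2.

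A split into an upper and a lower group of equal size by the Slc4a1 share of both genes, made in every section, was chosen after seeing the data and uses all members with a UMI of either gene. It called 3 of 10263 genes (0.0292%). Aqp6 was 133 and 204 CPM in the upper group against 50.1 and 76.5 CPM in the lower group in Uox_KO, and 83 and 76.8 CPM against 62.6 and 55.5 CPM in Control. It was higher in the upper group in 4 of 4 sections (log2 difference 0.93, SE 0.14, adjusted p 0.00106). Of the 4 type A genes tested Aqp6 alone passed, and their log2 differences ran from -0.15 to 1.32. The other differences between the leanings were smaller in this split and did not pass, at -0.35 for Insrr (adjusted p 0.487), -0.28 for Slc4a9 (0.713) and -0.23 for Aqp2 (0.784). The other 2 genes were Lcn2 (-1.07, adjusted p 6.18e-05) and Igfbp2 (-1.81, adjusted p 0.000785), and both were at most 0.771 CPM in the members of a Control section.

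The proton pump moved unevenly. Of 21 pump genes tested between genotypes in members, 7 were lower (33.3%) and 2 higher (9.52%), against 13.3% lower and 14.6% higher of all genes, with a median log2 difference of -0.30. Of the isoforms known from intercalated cells, Atp6v1c2 and Atp6v1b1 were among the lower ones and Atp6v0a4 did not pass. Atp6v0a4 set members apart weakly, at 1.34 and 1.92 times the level of the other spots in Uox_KO and 1.35 and 1.48 times in Control. For Atp6v1b1 these folds were 10.1 and 9.09 in Uox_KO and 5.30 and 4.44 in Control. Atp6v1c2 had 64.9 and 107 CPM in Uox_KO members, against 162 and 179 CPM in Control members (-0.97, SE 0.18, adjusted p 0.0008). Atp6v1b1 had 97.9 and 152 CPM in Uox_KO members and 169 and 198 CPM in Control members (-0.54, SE 0.17, adjusted p 0.028). That call was lost without Uox_KO replicate 1 (adjusted p 0.103) and without Control replicate 2 (0.145). Subunits used by all cells fell too, with Atp6v1e1 at 319 and 459 CPM in Uox_KO and 642 and 726 CPM in Control (-0.81, adjusted p 0.0022) and Atp6v1b2 at 113 and 103 CPM in Uox_KO and 196 and 198 CPM in Control (-0.86, adjusted p 0.00011). Atp6v1d, Atp6v1f and Atp6v0c were the other lower genes, and Atp6v1f was no longer called without Control replicate 1 (adjusted p 0.0779) or 2 (0.302) and Atp6v0c without Control replicate 1 (0.243) or 2 (0.327). The 2 higher genes were subunit a isoforms. Tcirg1, the a3 isoform known from osteoclasts and macrophages, had 42.5 and 31.8 CPM in Uox_KO members and 15.2 and 14.5 CPM in Control members (1.32, SE 0.19, adjusted p 8.6e-05). Atp6v0a1 had 51 and 44 CPM in Uox_KO and 26.2 and 26.2 CPM in Control (0.86, SE 0.15, adjusted p 0.00055). The a4 isoform, Atp6v0a4, had 110 and 179 CPM in Uox_KO members and 186 and 202 CPM in Control members and did not pass (adjusted p 0.097). With 1 score threshold for all sections Atp6v1c2 was at -0.17 (adjusted p 0.345) and Atp6v1b1 at 0.012 (adjusted p 0.968). In the other spots 16 of 21 pump genes were lower (76.2%) and 2 higher (9.52%), with a median of -0.37. Of all genes there 32.9% were lower and 34.9% higher. Tcirg1 was at 47.7 and 47.5 CPM in the other Uox_KO spots and 14.1 and 14.9 CPM in the other Control spots. Atp6v0a1 was at 49.8 and 50.8 CPM in the other Uox_KO spots and 25.9 and 27.5 CPM in the other Control spots. All 6 listed macrophage genes were higher in Uox_KO members, summing to 720 and 407 CPM against 78.4 and 58.9 CPM in Control members, and their part in the Tcirg1 difference was not tested.

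Among 16 acid-base and ion transport genes tested, 4 were higher (25%) and 3 lower (18.8%), against 14.6% and 13.3% of all genes, with a median log2 difference of -0.18. Atp12a, the non-gastric proton-potassium pump subunit, had 14.3 and 17.3 CPM in Uox_KO members, against 1.54 and 1.49 CPM in Control members. These are 39 and 55 UMIs in Uox_KO and 6 and 7 in Control. It rose by 3.37 (SE 0.35, adjusted p 5.2e-06) and was between 2.84 and 3.75 in every alternative. Outside the members Atp12a was 0.318 and 1.21 CPM in Uox_KO and 0.515 and 0.379 CPM in Control, and did not pass there (0.75, adjusted p 0.25). Its gastric relative Atp4a had 58.3 and 89.3 CPM in Uox_KO members and 82 and 93.6 CPM in Control members, with a log2 difference of -0.24 (adjusted p 0.33). Car15, a membrane-bound carbonic anhydrase, had 526 and 787 CPM in Uox_KO members and 431 and 476 CPM in Control members (0.54, SE 0.17, adjusted p 0.031), which did not pass without Uox_KO replicate 2 (adjusted p 0.115), Control replicate 1 (0.23) or Control replicate 2 (0.114). Rhcg, another ammonia transporter, had 293 and 394 CPM in Uox_KO members and 459 and 527 CPM in Control members (-0.52, SE 0.16, adjusted p 0.022), which did not pass without Control replicate 1 (0.0556) or 2 (0.232). With 1 score threshold for all sections Rhcg was at 0.018 (adjusted p 0.943). The ammonia transporter Rhbg (-0.13, adjusted p 0.67) and the cytosolic carbonic anhydrase Car2 (-0.49, adjusted p 0.069) did not pass. In the other spots 12 of 18 acid-base and ion transport genes were lower (66.7%) and 2 higher (11.1%), with a median of -0.89. Of all genes there 32.9% were lower and 34.9% higher.

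Of 11 regulators and receptors tested, 3 were lower (27.3%) and 1 higher (9.09%), against 13.3% and 14.6% of all genes, with a median of -0.15. Besides Insrr and Oxgr1, the lower gene was Hmx2, a homeobox factor, at 46.6 and 41.8 CPM in Uox_KO members and 71.4 and 84.9 CPM in Control members (-0.82, SE 0.14, adjusted p 0.0005). With 1 score threshold it was at -0.11 (adjusted p 0.698). P2ry14, the UDP-glucose receptor that links intercalated cells to inflammation, had 6.24 and 10.4 CPM in Uox_KO members and 4.37 and 1.7 CPM in Control members (1.52, SE 0.44, adjusted p 0.017). It did not pass without Uox_KO replicate 2 (adjusted p 0.103) or Control replicate 2 (0.19). Tfcp2l1, a factor of the intercalated cell lineage, had 273 and 337 CPM in Uox_KO members and 237 and 256 CPM in Control members and did not pass (adjusted p 0.1). In the other spots 6 of 12 regulators and receptors were lower (50%) and 3 higher (25%), with a median of -0.44. Of all genes there 32.9% were lower and 34.9% higher.

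**Figure D3:**
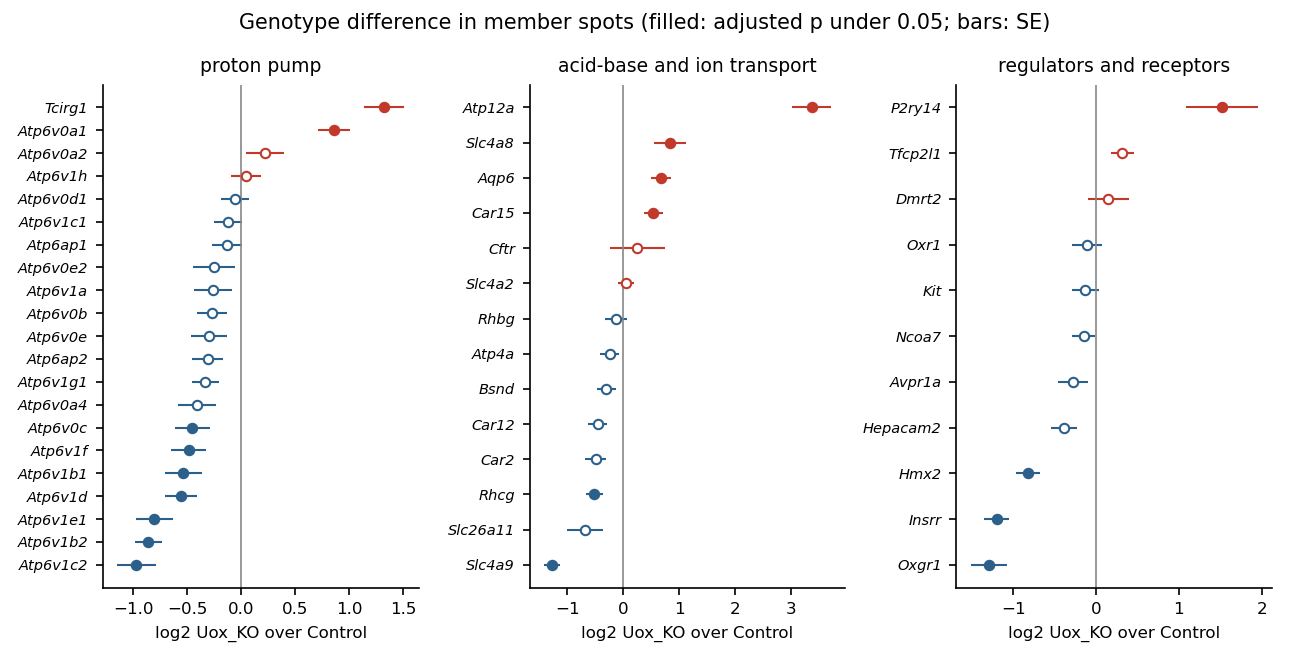
Log2 difference of Uox_KO over Control in member spots (horizontal) for the tested genes of 3 intercalated cell lists that are reported here (vertical), with the standard error as bars and filled points for an adjusted p under 0.05. Atp12a (3.37) lies far right of the others and Oxgr1 (-1.29), Slc4a9 (-1.28) and Insrr (-1.20) lie farthest left.

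Defence and inflammation genes were higher in Uox_KO members. Of 12 such genes tested 9 were higher (75%) and none lower, against 14.6% and 13.3% of all genes, with a median of 1.73. The list was also higher outside the members, where 14 of 17 genes were higher and 1 lower (median 2.11), against 34.9% higher and 32.9% lower of all genes there. The 3 not called were Defb1 (adjusted p 0.25), Rnase6 (0.054) and Il18 (0.95). Lcn2, which binds bacterial siderophores, had 268 and 104 CPM in Uox_KO members, against 0.771 and 0.425 CPM in Control members (8.23, SE 0.56, adjusted p 1.1e-07). Wfdc2, a secreted protease inhibitor, had 1335 and 1556 CPM in Uox_KO members and 509 and 550 CPM in Control members (1.45, SE 0.16, adjusted p 7.1e-06). The stress factor Gdf15 had 54.3 and 44.3 CPM in Uox_KO members and 4.88 and 3.83 CPM in Control members (3.50, adjusted p 5.1e-08). The antimicrobial Rnase4 had 24.9 and 23.6 CPM in Uox_KO members and 12.1 and 10.8 CPM in Control members (1.09, adjusted p 0.00079). Defb1, a beta-defensin of the distal nephron, had 1128 and 1776 CPM in Uox_KO members and 1738 and 1918 CPM in Control members, a log2 difference of -0.33. All 7 injured tubule genes, a list that also holds Lcn2 and Spp1, and all 5 fibroblast genes tested were higher in Uox_KO members too, and their part in these differences was not tested. Injured tubule genes summed to 7357 and 6704 CPM in Uox_KO members and 1453 and 1534 CPM in Control members. Spp1 alone made up 6863 and 6466 CPM of this sum in Uox_KO members and 1434 and 1518 CPM in Control members. The injured tubule gene Havcr1 had 33.7 and 12.9 CPM in Uox_KO members and 0.514 and 0.213 CPM in Control members. Fibroblast genes summed to 967 and 595 CPM in Uox_KO members and 126 and 117 CPM in Control members.

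Nuclear-encoded respiration genes, on which intercalated cells rely heavily, were lower. Of 18 such genes 13 were lower (72.2%) and none higher, against 13.3% lower and 14.6% higher of all genes, with a median of -0.51. The mitochondrially encoded genes were not lower in members, where 3 of 13 were higher (23.1%) and none lower. Cycs, for cytochrome c, had 389 and 621 CPM in Uox_KO members and 914 and 977 CPM in Control members (-0.90, SE 0.19, adjusted p 0.0023), and the complex II gene Sdhb had 238 and 274 CPM in Uox_KO and 416 and 416 CPM in Control (-0.69, adjusted p 0.0011). In the other spots 15 of the 18 nuclear-encoded genes were lower (median -0.55), against 32.9% of 16279 genes lower and 34.9% higher there. No nuclear-encoded respiration gene passed the interaction test of members against the other spots. Of 13 mitochondrially encoded genes 5 were higher in that test (38.5%) and none lower, against 3.22% and 4.29% of all genes.

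The largest changes of all genes in members, among those averaging at least 20 CPM, were in genes of other roles. Cyp4a14, a fatty acid hydroxylase, had 576 and 491 CPM in Uox_KO members and 5.65 and 5.53 CPM in Control members (6.57, SE 0.19, adjusted p 2.2e-11). Scd1, a lipid desaturase, had 312 and 286 CPM in Uox_KO members and 7.71 and 7.23 CPM in Control members (5.32, adjusted p 3.3e-11). The complement gene C3 (4.62), the adipocyte gene Cfd (6.97), the protease inhibitors Serpina1d (5.71) and Timp1 (6.46), the matrix gene Smoc2 (5.55) and the keratin Krt19 (5.14) also rose. Ltbp2 and Igfbp2 were at 67.9 and 39 CPM and at 45.1 and 40.2 CPM in Uox_KO members, and at most at 0.425 CPM in a Control section's members. The falls were led by Pvalb, a distal convoluted tubule gene, at 1.83 and 0 CPM in Uox_KO members and 52.2 and 51.5 CPM in Control members, and by the red cell genes Alas2, Hbb-bs (-5.65), Hba-a1 (-5.35), Hbb-bt (-5.29) and Hba-a2 (-4.40). The proximal tubule glucose carrier Slc5a2 had 31.9 and 40.2 CPM in Uox_KO members and 418 and 399 CPM in Control members (-3.49, adjusted p 2.1e-09). Ces1g (-4.21), Cyp2d12 (-3.82), Dnase1 (-3.75), Clec2h (-3.61) and Hsd3b2 (-3.53) fell as well. Each of these genes and Lcn2 also passed in the other spots in the same direction.

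**Figure D4:**
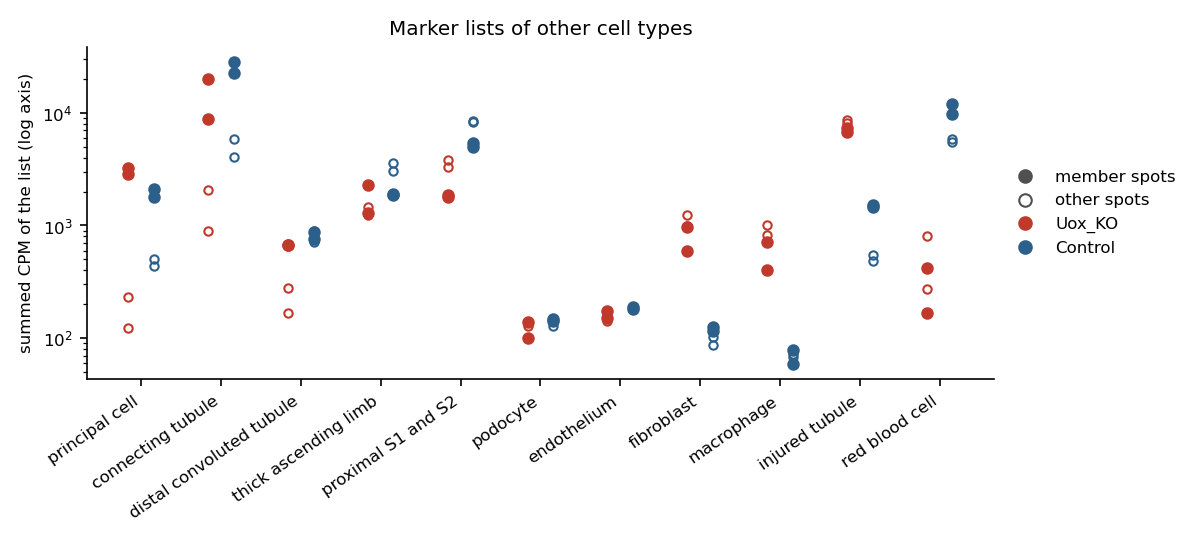
Summed CPM on a log axis (vertical) of marker lists of other cell types (horizontal), each point being 1 section, filled for members and open for other spots. Injured tubule, fibroblast and macrophage lists are higher in both Uox_KO sections than in both Control sections, and the red cell list is lower (168 and 421 against 11998 and 9667 CPM in members). Most of the injured tubule sum is Spp1 in every section.

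Principal cell genes were higher or not past the test in Uox_KO members and mostly lower in the other Uox_KO spots. The 9 principal cell genes summed to 2854 and 3236 CPM in Uox_KO members and 1789 and 2116 CPM in Control members, but to 123 and 231 CPM in the other Uox_KO spots and 436 and 508 CPM in the other Control spots. In members 4 of 8 were higher (50%) and none lower, against 14.6% higher and 13.3% lower of all genes. The others were between adjusted p of 0.081 (Scnn1b) and 0.89 (Hsd11b2). In the other spots 7 of 8 were lower (87.5%) and none higher, against 32.9% lower and 34.9% higher of all genes there. Aqp2 had 1205 and 1172 CPM in Uox_KO members and 322 and 393 CPM in Control members (1.74, SE 0.15, adjusted p 1.3e-06). Much of the gap between the summed CPM of members lay in this gene. Hsd11b2 overlapped, at 708 and 970 CPM in Uox_KO members and 806 and 928 CPM in Control members. In the other spots Aqp2 had 33.7 and 71.4 CPM in Uox_KO and 101 and 118 CPM in Control (-1.09, adjusted p 0.014). The vasopressin receptor Avpr2 had 125 and 142 CPM in Uox_KO members and 67.6 and 77.2 CPM in Control members (0.89, SE 0.13, adjusted p 0.00014).

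Whether the genotype difference in members differed from that in the other spots was tested as an interaction, with the section as a block. Of 14710 genes 3.22% had a higher difference in members and 4.29% a lower one. All 8 principal cell genes, all 5 connecting tubule genes, 11 of 17 acid-base genes and 2 of 21 pump genes were higher, and none of these lists had a lower gene. The same held for all 5 thick ascending limb genes and 3 of 4 distal convoluted tubule genes, again with none lower. Of 5 proximal S1 and S2 genes 3 were lower and none higher. The distal genes are low outside members in Uox_KO, and the score threshold itself differs between genotypes, so the interaction describes how sharply these transcripts were concentrated in members. Defb1 was 89 and 177 CPM in the other Uox_KO spots and 595 and 738 CPM in the other Control spots, and the interaction was 2.03 (SE 0.10, adjusted p 8.3e-12). Slc4a9 was 1.72 and 4.87 CPM in the other Uox_KO spots and 25.1 and 32.8 CPM in the other Control spots (interaction 1.86, adjusted p 4.2e-07). For Atp12a the interaction was 2.62 (SE 0.56, adjusted p 0.0035), a call lost without Control replicate 1 (adjusted p 0.0681). The number of genes called fell to 243 higher and 194 lower without Control replicate 1 and to 192 higher and 212 lower without Control replicate 2, against 474 higher and 631 lower with all 4 sections, and was 735 higher and 998 lower without Uox_KO replicate 1.

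**Figure D5:**
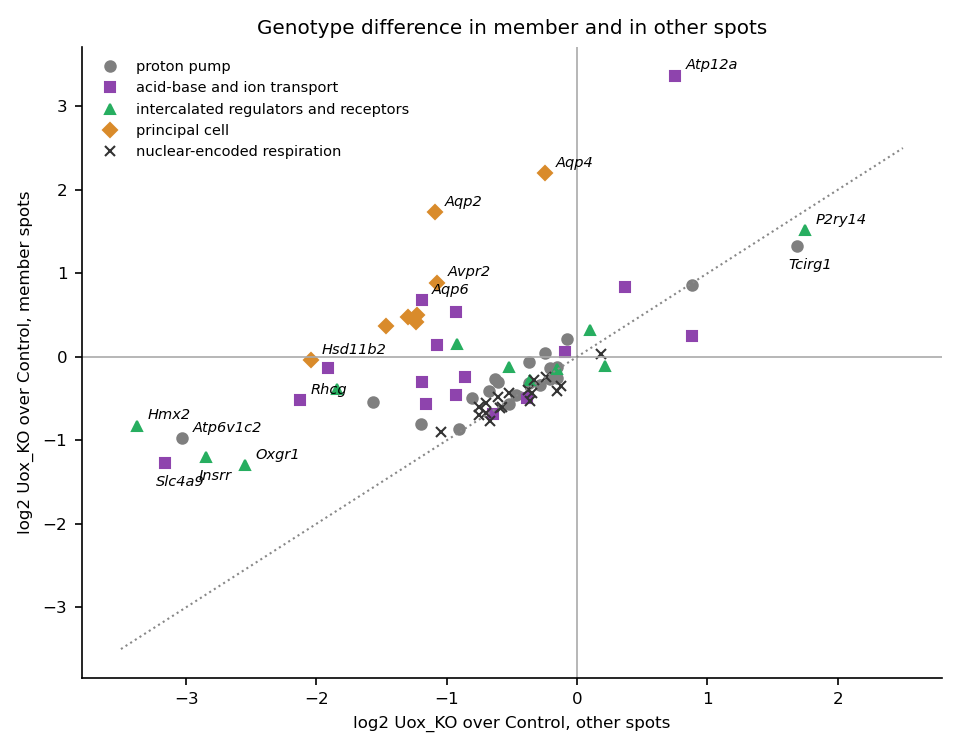
Log2 difference of Uox_KO over Control in member spots (vertical) against that in the other spots (horizontal) for genes of 5 lists, with a dotted line where both are equal. The principal cell gene Aqp2 (1.74 in members, -1.09 in the other spots) and the transport gene Atp12a (3.37 and 0.75) lie above the line, and respiration genes lie along it.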

How the data were processed

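Spot UMI counts of 4 Visium kidney sections were deposited as gene by spot matrices. Per the submitters' processing notes, the authors made these counts with Space Ranger 1.3.1 on mm10, and the values are raw whole-number counts of 32285 genes. The members and gene lists were chosen with earlier results of these data known.

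UMIs were summed per section over members and over the other spots, giving 8 sums. Section totals were 53897511 and 57230517 UMIs in Uox_KO and 93524222 and 107962997 in Control. Genes passing filterByExpr were scaled by TMM and tested with edgeR 4.0.16 (glmQLFit, glmQLFTest, R 4.3.3), with Benjamini-Hochberg adjustment over all genes tested and a threshold of 0.05. Member against other spots, type leaning and the interaction had the section as a block. The 5 genes of the rule were left out of tests, except where each was omitted from the score. DESeq2 1.42.0 was an alternative. Summing and shares used Python 3.11.15, with exact binomial intervals and exact permutation tests from scipy 1.17.1.

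Genes of the intercalated lists could be named. Of all genes, the 12 largest rises and 12 largest falls past the threshold were named, if they averaged 20 CPM or more. For the genotype difference the groups also had to show no overlap. For the interaction the same held for the ratios of member to other spots. For members against other spots and for the leanings the direction had to be the same in all sections. The 10 genes most correlated with the score were named too. A few genes that meet these rules are not reported here, though counts over lists include them. On simulated data of 11715 genes, the genotype fit recovered 80% of 2-fold and 98% of 4-fold changes. The interaction fit recovered 58% and 76% in data of 14417 genes, and the fit of leanings 53% and 91% in data of 8643. The 200 changed genes of each fit had an expected mean of at least 20 UMIs per sum, so recovery at lower counts was not measured. Unchanged genes called were 5 for the genotype fit, 10 for the interaction and 2 for the leanings. The split by Slc4a1 share, the fits without scaling and the fit on Uox_KO sections alone were chosen after seeing the data. Doublet calling was not applied to spots, and all deposited spots were used.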

Additional observations from a re-analysis of the deposited data

Results flagged for a closer look

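For these genes the difference between member and other spots in Uox_KO was unlike that in Control, by the interaction test (edgeR, adjusted p under 0.05). Each value is the log2 difference of member over other spots in Uox_KO minus the same in Control, so that a positive value means a higher ratio of member to other spots in Uox_KO than in Control, whether the gene is above or below 1 there. The score threshold differed between genotypes, and its part in these values was not tested.

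Among intercalated cell genes the values were Aqp6 (1.84), Atp12a (2.62), Atp4a (0.58), Atp6v1b1 (0.98), Atp6v1c2 (2.03), Bsnd (0.84), Car12 (0.42), Car15 (1.44), Hepacam2 (1.42), Hmx2 (2.51), Insrr (1.60), Oxgr1 (1.20), Rhbg (1.82), Rhcg (1.63) and Slc4a9 (1.86). Among principal cell genes and genes of other roles they were Aqp2 (2.88), Avpr2 (1.94), Hsd11b2 (2.05), Kcne1 (2.35), Calb1 (2.18), Cwh43 (2.48) and Degs2 (2.11). Among defence genes they were Defb1 (2.03), Pigr (0.89), Rnase4 (-0.82), Spp1 (-1.80) and Wfdc2 (-0.35). Among genes of lipid metabolism and fat cells they were Acaca (-1.97), Acacb (-2.09), Apoc1 (-2.04), Car3 (-2.65), Fabp4 (-2.43), Pdk4 (-2.07) and Thrsp (-2.56). For red cell and other genes they were Acta2 (-2.24), Hbb-bs (-1.99), Hbb-bt (-2.03), Pygl (-2.12) and Rgs2 (-2.02).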

How the results depend on the processing

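Between genotypes in members, 1089 genes were higher and 999 lower with the top 2.5% of spots as members, 2639 and 2461 with the top 10%, and 975 and 815 by DESeq2. Leaving out 1 section gave 1143 to 1892 higher and 1031 to 1775 lower genes, the lowest without Control replicate 2. With no scaling, 2269 were higher and 1081 lower. Members against other spots gave 3503 higher and 1507 lower with no scaling, with the median of all genes at 0.179. The interaction gave 253 higher and 314 lower with the top 2.5%, 218 and 275 by DESeq2, 1136 lower with 1 score threshold and 985 lower with no scaling. Leaving out 1 section gave 192 to 735 higher and 194 to 998 lower.

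Type A against type B leaning members gave 6 higher and 4 lower with the top 2.5%, 23 and 35 with the top 10%, and 54 higher with a score without Slc4a1. It gave 23 higher by RLE scaling, 7 higher with no filter, 0 and 0 by DESeq2, and 1 and 2 for the groups by Slc4a1 share. Uox_KO sections alone gave 34 and 32, and leaving out 1 section 0 to 32 higher and 1 to 33 lower. The type A leaning share differed by 22.8 percentage points, by 14.3 after thinning, and by 13.4 over spots with Slc4a1 and no Slc26a4 UMI. Leaving out 1 section, omitted Atp6v1g3 ranged from -1.74 to -0.69 (not past the test at -1.02) and omitted Slc4a1 from -0.61 to -0.031.

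With 1 score threshold, Atp6v1b1 (0.012) and Rhcg (0.018) changed sign between genotypes, and Avpr2 (0.027) did in the groups by Slc4a1 share. The cause was not tested. Of 699 alternative values for 50 named genes in the genotype comparison, 651 kept direction and call, 46 lost the call and 2 reversed. Of 193 for 15 genes in the comparison of leanings, 121 kept both, 71 lost the call and 1 reversed. The interaction lost 25 of 533 and members against other spots 20 of 800. With the replicate number as a block 1999 genes were higher and 1900 lower; replicates 1 minus 2 correlated at 0.0988 between genotypes over 6020 genes, so the numbers were not taken to pair sections. Uox_KO members were shallower, so low genes there had fewer counts.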

Other observations

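Other cell types in the same spots changed unevenly between genotypes. Of the genes tested in Uox_KO members against Control members, all 5 proximal S1 and S2 genes were lower (median log2 difference -2.04), and 2 of 4 distal convoluted tubule genes were lower and none higher. Of 5 thick ascending limb genes 1 was higher and 1 lower, and of 5 podocyte genes 1 was higher and 2 lower. None of 5 endothelial genes passed the test (-0.44 to 0.06). All 4 adipocyte genes were higher, summing to 99 and 266 CPM in Uox_KO members and 1.28 and 1.28 CPM in Control members. Of 5 connecting tubule genes 2 were higher and 1 lower, and of 13 mitochondrially encoded genes 3 were higher and none lower. Among all genes tested, 14.6% were higher and 13.3% lower.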
